A study of Mus musculus with 18 samples.

Results

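Promoter accessibility was compared between bulk nuclei of the central amygdala (CeA) and of the prefrontal cortex, that is nuclei sorted on a DNA stain with no cell-type gate. The comparison rests on 10 of the 18 libraries of the series, 5 per region, chosen by the labels: 3 CeA and 3 cortex libraries from mice with Erbb4 knocked out in somatostatin-positive (SOM+) cells, here KO, and 2 CeA and 2 cortex libraries labelled wild type, here WT. All mice were C57BL/6J, aged 2 to 3 months. Tissue was microdissected from 500 µm sections, and each library held 50000 nuclei. WT was taken from the sample titles, because the genotype entry of those libraries also carries the knockout. Neither the Cre driver nor the deleted part of Erbb4 is given in the sources used here. The other 8 libraries hold SOM+ nuclei of the same regions from control and fear-conditioned mice, 4 per region, and serve below only to show where the bulk difference departs from theirs. The sort protocol speaks of technical replicates, so p values measure the spread between these libraries, which may in part be technical.

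The CeA is derived from the ventral forebrain and is built mostly of GABAergic neurons that resemble the medium spiny neurons of the striatum. The prefrontal cortex is a pallial tissue, in which glutamatergic projection neurons outnumber GABAergic interneurons. In ATAC-seq the transposase Tn5 cuts open DNA, so reads at a promoter measure how accessible it is and not how much RNA is made. In bulk nuclei, fewer nuclei of a cell type and lower accessibility per nucleus cannot be told apart. Levels are the counts of a promoter window, 1 kb on each side of the transcription start, per 1000000 promoter counts of the library (CPM), scaled by TMM (an edgeR factor that balances libraries). Some windows, such as that of Vrtn, are wider, and levels are not divided by width. Where 5 values follow each other they are KO 1, KO 2, KO 3, WT 1 and WT 2. Differences are log2 CeA minus cortex with their standard error (SE), levels are means ± SD (n = 5 per region), and called, higher or lower mean an adjusted p under 0.05 in edgeR's quasi-likelihood test. Coordinates of windows are in the build mm9.

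The Erbb4 promoter measured 40.4, 29.9, 33.9, 36.9 and 38.9 CPM in CeA and 27.3, 39.1, 43.5, 36.1 and 48.5 CPM in cortex. The KO and WT libraries overlapped in both regions, and the difference between regions was -0.11 (SE 0.14, adjusted p = 0.65). With the deleted part unknown, this window does not check the genotype. Promoter totals ran from 2751769 to 7220446 counts in CeA and from 5146020 to 7939962 in cortex, so that 0 counts allow up to 0.378 to 1.09 CPM, counting error alone. Reads over the promoters of 3 Y-linked genes were 0 in KO 2 of both regions, labelled male, and present in WT 1 of both, labelled female, so the labelled sex goes against the data in 4 libraries, and in the same way in each region. The cortex libraries KO 3 and WT 2 stood apart from the other 8 on the first principal component (71.6 and 63.6, the others from -56.8 to 9.98), which held 39.1% of the variance. Counts on gene lists below are therefore also given without cortex KO 3 and WT 2. The value of -56.8, at the other end, was that of CeA WT 1, and counts on lists without CeA WT 1 are not given. Signal over background, taken as the ratio of the median CPM of ribosomal protein promoters to the median of silent olfactory receptor promoters, was 15.9 ± 3.43 in CeA and 12 ± 2.12 in cortex (n = 5 each, exact two-sided permutation test, p = 0.0714).

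Of 24962 promoters tested, 4345 were called (17.4%), of which 1374 were higher in CeA (5.50% of those tested) and 2971 were lower (11.9%). Few differences were large: 136 of the higher and 507 of the lower promoters passed 2-fold, and 4 and 32 passed 4-fold. In 2579 promoters (10.3%) the 5 CeA libraries did not overlap the 5 cortex libraries, 943 with CeA above (3.78%) and 1636 with CeA below (6.55%), and 767 of the higher and 1459 of the lower calls were among them. The excess of lower calls depended on the processing. Calls higher in CeA made up 31.6% with TMM, 43.7% with no filter, 44.8% with a minimum count of 30, 47.5% with limma after cyclic loess and 54% when libraries were scaled by their total, which moved the median over all promoters from -0.03 to 0.11. Without the cortex libraries KO 3 and WT 2, 2390 promoters were called, 48.6% of them higher, and 2107 of these calls were shared with all 10 libraries. Leaving out 1 library at a time gave from 2645 calls (without cortex KO 3) to 6838 (without cortex KO 1). Without CeA WT 1 alone, 2842 promoters were called, 47.9% of them higher. Above 100 CPM the lower calls dominated (429 of 2497 against 20 higher), and the median there was -0.26 with TMM and -0.01 with cyclic loess.

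**Figure D1:**
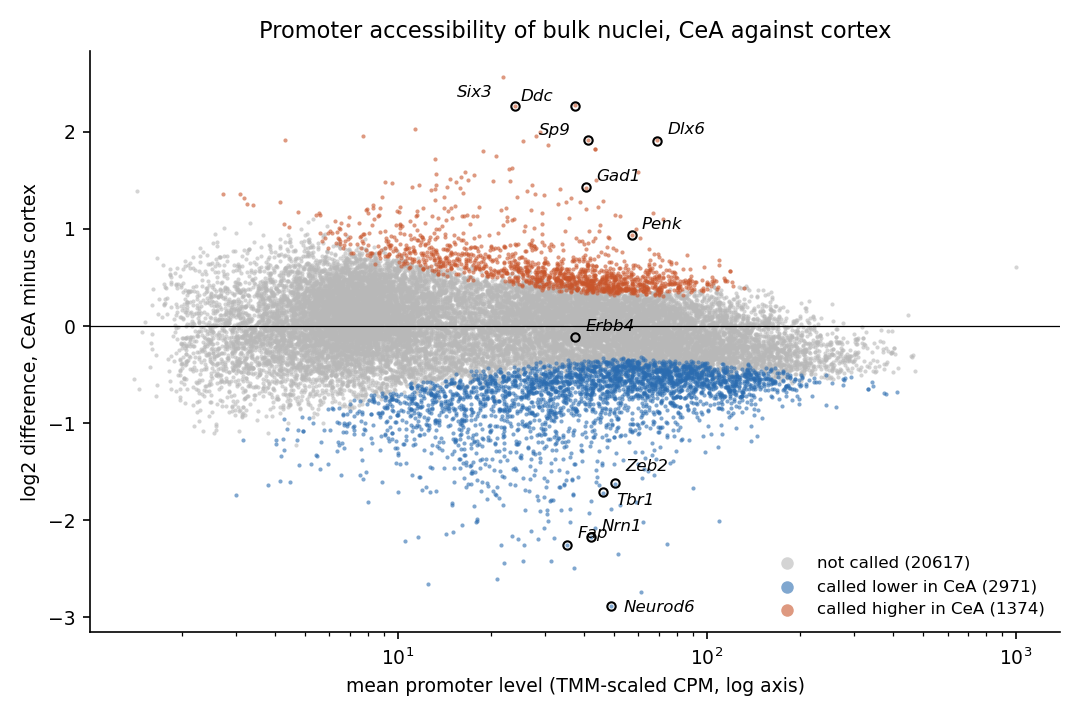
Log2 difference between CeA and cortex (vertical axis) against the mean TMM-scaled CPM (log axis) of each of the 24962 promoters, with 1374 called higher in orange and 2971 called lower in blue. Neurod6 at -2.88 and Six3 and Ddc at 2.27 lie far from the bulk of promoters, and Erbb4 lies near 0.

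Promoters that define GABAergic neurons had the highest median difference of the 33 gene lists. Of 15 genes, 10 were higher and 1 was lower, with a median of 1.28, against -0.03 over all promoters. The counts were the same without the cortex libraries KO 3 and WT 2. Gad1, which makes GABA from glutamate (chr2:70399186-70401185), measured 68.3, 56.9, 62.5, 49.7 and 58.2 CPM in CeA and 28, 21.6, 18.5, 23.7 and 17.4 CPM in cortex. The lowest CeA library stood above the highest cortex library, and the difference was 1.43 (SE 0.14, adjusted p = 4.07e-07). Gad2, the second GABA-making enzyme, averaged 64.6 ± 16.7 CPM in CeA and 22.6 ± 2.02 in cortex (1.51, SE 0.15).

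GABA is packed into synaptic vesicles by a single transporter. The vesicular GABA transporter Slc32a1 (chr2:158435494-158437493) measured 85.1, 61.7, 75.7, 62.8 and 54.1 CPM in CeA and 18.7, 23.4, 13.8, 14.9 and 24.6 CPM in cortex (1.83, SE 0.16, adjusted p = 2.07e-07). Its window shares 1966 bases with that of Gm14204, so their reads are largely the same. The breakdown enzyme Abat moved least of the called members, at 0.47 (SE 0.13).

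Among the transcription factors of this lineage, Dlx6 (chr6:6812334-6814333) measured 139, 114, 110, 102 and 82 CPM in CeA and 27.1, 27, 35.7, 25.3 and 29.7 CPM in cortex. No library of the regions overlapped, and the difference was 1.91 (SE 0.13, adjusted p = 9.79e-09). Its neighbour Dlx5 stood at 1.58 (SE 0.14). The paired genes Dlx1 and Dlx2 did not pass the test: 28.4 ± 3.2 against 26.5 ± 3.71 CPM and 25.3 ± 5.35 against 18.7 ± 1.35 CPM (adjusted p = 0.712 and 0.0635).

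Sp9, a zinc finger factor of neurons born in the ganglionic eminences, had the smallest p on the CeA side (chr2:73108983-73110982). It measured 79.1, 64.7, 75.5, 48.9 and 59.2 CPM in CeA and 21.9, 18.2, 16, 14.9 and 14.8 CPM in cortex (1.92, SE 0.13, adjusted p = 7.57e-09). Its promoter is shown beside that of Neurod6, which led the fate factors on the cortex side, since these had the smallest p in each direction among the genes named that have exactly 1 entry in the reference table. Both run 5′ to 3′ from 250 bases before to 50 after the RefSeq start in GRCm38.p6, Sp9 at chr2:73271676-73271975 on the plus strand and Neurod6 at chr6:55681214-55681513 on the minus strand. Capitals mark the match to GGGCGG, the GC box, read on the opposite strand.
Sp9: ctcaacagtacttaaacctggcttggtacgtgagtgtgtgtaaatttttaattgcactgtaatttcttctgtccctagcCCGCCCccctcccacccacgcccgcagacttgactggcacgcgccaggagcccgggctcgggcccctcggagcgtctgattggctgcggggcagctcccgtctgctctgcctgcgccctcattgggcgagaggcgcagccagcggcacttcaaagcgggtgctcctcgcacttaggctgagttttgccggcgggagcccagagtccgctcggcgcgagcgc
Neurod6: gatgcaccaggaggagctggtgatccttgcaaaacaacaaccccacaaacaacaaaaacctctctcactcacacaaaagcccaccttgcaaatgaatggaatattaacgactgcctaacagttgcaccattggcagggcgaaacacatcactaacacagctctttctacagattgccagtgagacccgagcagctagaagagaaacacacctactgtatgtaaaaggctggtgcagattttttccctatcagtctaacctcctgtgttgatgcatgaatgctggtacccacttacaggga
Sp9 has 63.7% G and C and 25 CpG sites, and Neurod6 has 46.3% and 3, where the median over 32851 reference promoters is 52.7% and 7. The GC box starts 171 bases before the Sp9 start and occurs in 35.7% of all reference promoters. Neither window held, on either strand, the MEIS core TGACAG (found in 19.2% of reference promoters), the full cAMP element TGACGTCA (in 1.79%), the AP-1 site TGANTCA (in 7.81%), the NEUROD type of E-box CAGATG (in 17.2%), the homeodomain core TAATTA (in 5.29%) or the octamer ATTTGCAT (in 1.74%). Gene names matched a reference promoter for 71.8% of tested windows, and motifs were not compared between called and uncalled promoters.

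**Figure D2:**
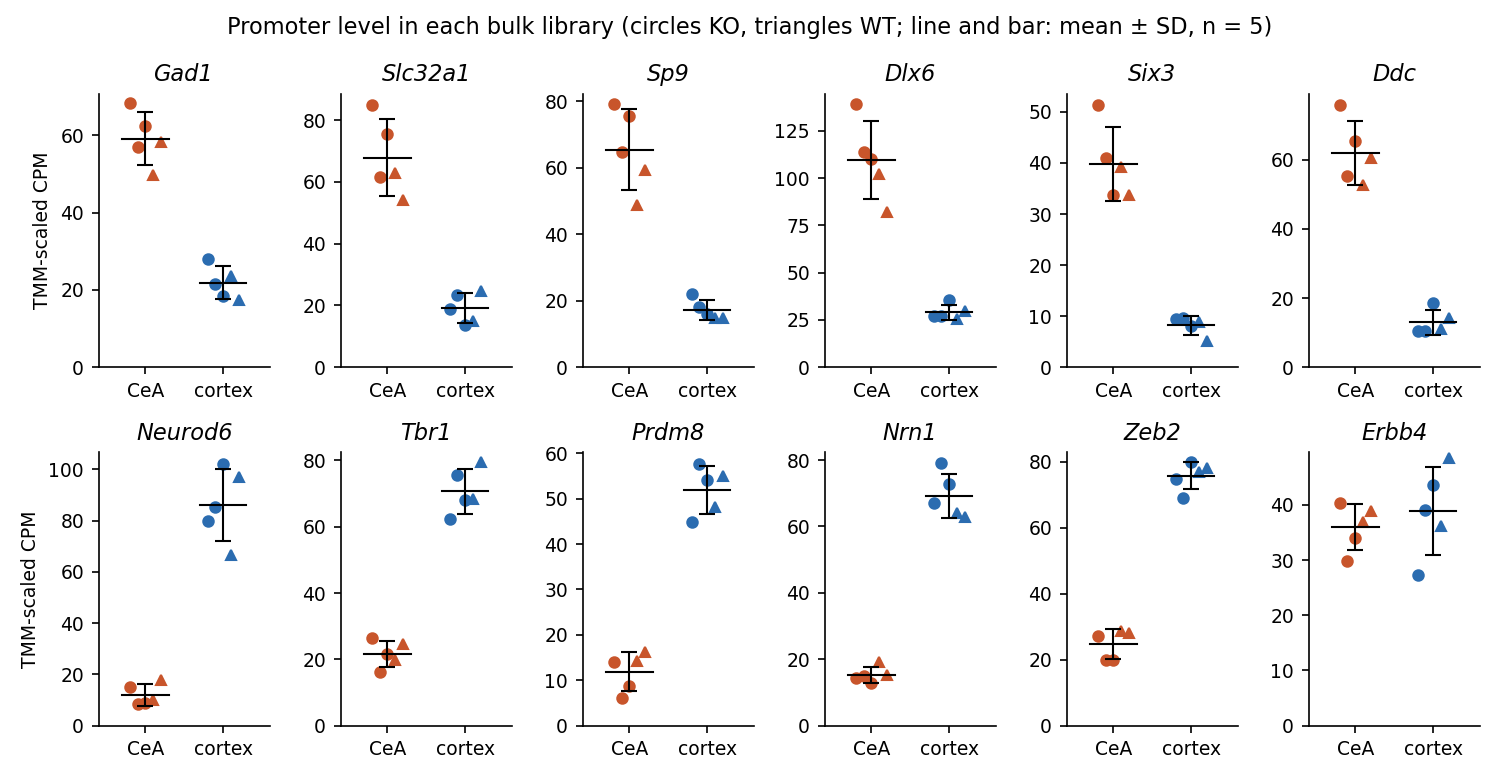
TMM-scaled CPM of 12 promoters in each of the 10 libraries (CeA orange, cortex blue, circles KO, triangles WT), with the mean and SD of 5 libraries per region. The first 6 promoters are higher in CeA and the next 5 lower, with no overlap between regions, and Erbb4 overlaps.

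Transcription factors of the lateral ganglionic eminence and amygdala, the embryonic source of striatal and CeA neurons, were mixed. Of 30 genes, 6 were higher and 2 lower (median 0.18). After adjustment for local promoter density, described below, the counts were 14 and 1, and without cortex KO 3 and WT 2 they were 10 and 1. Six3, which specifies striatal neurons (chr17:86019174-86021173), measured 51.3, 41, 33.7, 39.2 and 33.7 CPM in CeA and 9.52, 9.58, 8.01, 8.83 and 5.14 CPM in cortex, with no overlap (2.27, SE 0.17, adjusted p = 2.56e-08). Bcl11b (CTIP2), a factor of striatal and of deep-layer cortical neurons, stood at 0.85 (SE 0.14), and Isl1, a factor of striatonigral neurons, at 0.78 (SE 0.14). Helt was lower, at -1.21 (SE 0.18). Several factors of this origin did not pass the test, among them Meis2 at 69.9 ± 12.6 against 61.4 ± 7.67 CPM and Foxp2 at 51.2 ± 11.5 against 66 ± 14.8 CPM.

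Genes that mark CeA and striatal neurons were called mostly on the CeA side. Of 28, 9 were higher and 3 lower (median 0.14), and without cortex KO 3 and WT 2 the counts were 12 and 0. Ppp1r1b (DARPP-32), the dopamine-regulated phosphatase inhibitor, averaged 48.7 ± 4.94 CPM in CeA and 18.1 ± 3.41 in cortex (1.42, SE 0.15, adjusted p = 9.74e-07). Penk, the enkephalin precursor, measured 95.1, 72.1, 72.8, 66.8 and 67.5 CPM in CeA and 25.5, 36.5, 55.2, 33.2 and 44.9 CPM in cortex (0.94, SE 0.16, adjusted p = 0.000476). The regions did not overlap. Prkcd, the kinase that marks a major class of CeA neurons, measured 19.2, 22.7, 23.8, 23 and 26.5 CPM in CeA and 12, 14.8, 10.1, 16.7 and 11.8 CPM in cortex (0.80, SE 0.17, adjusted p = 0.00243).

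Other peptides of the CeA did not pass: Crh at 31.5 ± 6.84 against 30 ± 9.31 CPM, Nts at 19.3 ± 6.5 against 12.8 ± 2.5 CPM and Tac2 at 10.7 ± 2.09 against 9.33 ± 2.88 CPM. Members that were lower included Rasd2 and Nmbr, at -0.57 and -0.68, and neither was called without cortex KO 3 and WT 2 (adjusted p = 0.169 and 0.838).

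Dopamine signalling genes overlap that list. Of 22, 7 were higher and 3 lower (median 0.20; 7 and 1 without cortex KO 3 and WT 2). The receptor Drd2 was at 19.6 ± 2.56 against 10.7 ± 2.29 CPM (0.87, SE 0.18), while Drd1 did not pass (28.5 ± 4.18 against 22.7 ± 5.15 CPM, adjusted p = 0.19) and Drd5 was lower (-0.89, SE 0.17). Gng7, the gamma subunit of the striatal G protein, was called at its most accessible start (0.81, SE 0.12) and at a second start with a wider gap (48.3 ± 7.36 against 13 ± 4.35 CPM, 1.87, SE 0.19). Ddc, which converts L-DOPA to dopamine (chr11:11789412-11791411), measured 75.9, 55.4, 65.6, 52.7 and 60.6 CPM in CeA and 10.4, 10.4, 18.7, 11 and 14.3 CPM in cortex (2.27, SE 0.16, adjusted p = 1.47e-08). Only Six3 matched it in size among the promoters named on the CeA side.

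Fate factors of pallial glutamatergic neurons had the lowest median difference of the 33 lists. Of 21, none was higher and 14 were lower, with a median of -0.79, and without cortex KO 3 and WT 2 the counts were 0 and 13. Neurod6, a bHLH factor of cortical projection neurons (chr6:55630258-55632257), measured 15, 8.61, 8.69, 9.84 and 17.9 CPM in CeA and 79.8, 85.2, 102, 66.6 and 96.8 CPM in cortex. The highest CeA library was below the lowest cortex library by a wide margin, and the difference was -2.88 (SE 0.19, adjusted p = 4.95e-09). Tbr1, the T-box factor of deep-layer neurons (chr2:61641510-61643509), measured 26.4, 16.3, 21.5, 19.7 and 24.5 CPM in CeA and 62.2, 75.7, 68, 68.4 and 79.4 CPM in cortex (-1.71, SE 0.14, adjusted p = 4.49e-08).

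Emx1, a marker of the pallial lineage, averaged 13.4 ± 1.44 against 40 ± 3.88 CPM (-1.58, SE 0.14). Its paralogue Emx2 did not pass, at 18.3 ± 2.23 against 19.1 ± 1.72 CPM. Neurod1 and Neurod2 were lower, at -1.66 (SE 0.21) and -1.10 (SE 0.20). The nuclear factor I genes Nfix, Nfia and Nfib were lower too, at -1.11, -0.79 and -0.66.

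Layer markers were lower in part. Among upper-layer genes 0 of 19 were higher and 7 lower (median -0.28; 1 and 6 without cortex KO 3 and WT 2), among them Lhx2 (-1.05, SE 0.15) and Rorb (-0.96, SE 0.17), while Cux1 and Cux2 did not pass (0.37 and 0.32). Deep-layer genes gave 2 higher and 9 lower of 25 (median -0.29). After adjustment for local promoter density the deep-layer counts were 7 and 6, and without cortex KO 3 and WT 2 they were 3 and 7. Fezf2, the selector of corticofugal neurons, was at -0.75 (SE 0.13), and Nr4a2, which also marks the claustrum, at -1.48 (SE 0.21). The members that were higher were Bcl11b and Crym (0.72, SE 0.16).

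Markers of the basolateral amygdala and claustrum, glutamatergic nuclei next to the CeA, counted 2 higher and 7 lower of 18 (median -0.11; 0.03 with total count scaling; 2 and 5 without cortex KO 3 and WT 2). The lower members with the smallest p, Fezf2, Nr4a2 and Rorb, are also counted in the layer lists above. Rspo2, a secreted Wnt enhancer, was lower too, at 28.7 ± 2.94 against 57.4 ± 19.6 CPM (adjusted p = 0.000786). Lypd1 was higher (0.62, SE 0.13), as was Ppp1r1b, which stands in this list too. The summed level of the list ran from 455 to 578 CPM in CeA and from 490 to 795 CPM in cortex. Genes of glutamatergic function were mixed, 4 higher and 8 lower of 28 (median -0.09, or 0.05 with total count scaling; 4 and 7 without cortex KO 3 and WT 2). All 3 vesicular glutamate transporters were lower: Slc17a7 at 4.37, 9, 11.4, 14.3 and 10.7 CPM in CeA and 19.9, 14.4, 9.86, 18 and 18.1 CPM in cortex, with overlapping libraries (-0.71, SE 0.24, adjusted p = 0.0445, a call lost in 8 of the 10 fits that left out 1 library), Slc17a6 at -1.21 (SE 0.16) and Slc17a8 at -0.89 (SE 0.20). The zinc transporter Slc30a3 was also lower (-1.23, SE 0.23). The dendritic genes Ddn and Kcnip2 were higher, at 0.81 (SE 0.12) and 0.84 (SE 0.13), and the promoter of Camk2a, the kinase of excitatory synapses, was at 115 ± 16.8 and 115 ± 10.9 CPM.

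Outside these lists, the smallest p among the promoters named was that of Nrn1, neuritin, an activity-regulated gene of neurite growth (chr13:36825347-36827346). It measured 14.3, 14.9, 12.8, 19.3 and 15.2 CPM in CeA and 67.2, 79.1, 72.7, 64.1 and 62.8 CPM in cortex (-2.17, SE 0.13, adjusted p = 3.48e-09). Every cortex library stood above every CeA library. Zeb2, a zinc finger homeobox factor (chr2:44967800-44969799), measured 27.1, 19.8, 19.9, 28.8 and 28.2 CPM in CeA and 74.8, 69.1, 79.9, 76.7 and 78.2 CPM in cortex (-1.62, SE 0.12). The promoters of Mgp (matrix Gla protein) and Fap (a membrane serine protease), genes better known from connective tissue, were lower by similar amounts, at -2.20 (SE 0.15) and -2.25 (SE 0.17). So were Osbpl1a, an oxysterol-binding protein, at -2.34 (SE 0.17), and Prdm8, a PR domain factor of cortical projection neurons, at -2.18 (SE 0.19). Sprr2g, Masp1 (a complement protease) and Akr1c18 (a steroid reductase) stood at -2.11, -2.02 and -1.82. On the CeA side Cacng4, an auxiliary subunit of AMPA receptors also listed for oligodendrocyte precursors, was at 1.28 (SE 0.13), Vrtn at 1.35 (SE 0.13) and BB031773 at 1.39 (SE 0.14).

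Cortical interneuron genes of ganglionic eminence origin were called mostly on the cortex side in the main fit: 1 of 31 was higher and 8 were lower (median -0.18; 2 and 4 without cortex KO 3 and WT 2). After density adjustment the counts were 4 higher and 5 lower (median -0.06). Sst, somatostatin, measured 26.2, 21, 13, 22.6 and 20.7 CPM in CeA and 10.4, 8.41, 14.8, 13.9 and 19.7 CPM in cortex, with overlap (0.67, SE 0.21, adjusted p = 0.0305). The call on Sst was lost on leaving out CeA KO 1, CeA KO 2, cortex KO 2 or cortex WT 1. Its relative Cort did not pass, at 12.8 ± 3.25 against 11 ± 1.61 CPM. Maf (-0.95, SE 0.13) and Satb1 (-1.01, SE 0.15), factors of medial eminence interneurons, were lower, as was Cck (-1.27, SE 0.20), the peptide of another interneuron class and of many projection neurons. Lhx6, Pvalb and Vip did not pass, with differences of -0.18, -0.31 and -0.37.

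Neuropeptides and their receptors counted 4 higher and 11 lower of 50 (median -0.13; 0.02 with total count scaling and after density adjustment; 8 and 10 without cortex KO 3 and WT 2). Besides Penk, Pdyn (prodynorphin) was higher at 0.71 (SE 0.15). Adcyap1 (PACAP) averaged 8.82 ± 3.13 against 24.5 ± 3.45 CPM (-1.43, SE 0.21), and the somatostatin receptor Sstr1 was at -1.12 (SE 0.16). The oxytocin receptor Oxtr was higher, at 0.47 (SE 0.13).

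Monoamine and acetylcholine receptors counted 1 higher and 10 lower of 37 (median -0.16; 4 and 6 without cortex KO 3 and WT 2). The muscarinic receptor Chrm3 averaged 29.2 ± 4.5 against 65.5 ± 11.4 CPM (-1.17, SE 0.14). Adra1b was at -1.01 (SE 0.16), and the receptor that was higher was Htr1d (1.13, SE 0.17). Subunits of GABA-A and glutamate receptors counted 4 higher and 8 lower of 41 (median -0.16; 4 and 3 without cortex KO 3 and WT 2, 6 and 3 after density adjustment). Grik2 and Grm3 were lower, at -0.73 and -0.76, and Gabrg3, Grin1 and Grik3 were higher, at 0.65, 0.53 and 0.57.

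Potassium channels differed in both directions, 9 higher and 15 lower of 67 (median -0.18; 9 and 12 without cortex KO 3 and WT 2). Kcna5 averaged 34.7 ± 2.57 against 17 ± 1.46 CPM (1.03, SE 0.13), and Kcns3, a modulatory subunit, 27.1 ± 4.14 against 72.8 ± 23.3 CPM (-1.42, SE 0.18). Kcnn3 was at 0.86 (SE 0.12), and Kcnt2 and Kcnv1 at -1.25 (SE 0.16) and -1.03 (SE 0.13).

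Markers of non-neuronal cells were called in both directions, where 17.4% of all promoters were called, 5.50% higher and 11.9% lower. Astrocyte genes counted 2 higher and 4 lower of 24 (3 and 2 without cortex KO 3 and WT 2, 5 and 3 after density adjustment), with a summed level of 511 to 562 CPM in CeA and 523 to 607 CPM in cortex. The glutamate transporter Slc1a2 was lower (-0.67, SE 0.12) and Aldoc higher (0.83, SE 0.20), while Aqp4 and Gfap did not pass. Oligodendrocyte genes counted 0 higher and 5 lower of 28 (1 and 1 without cortex KO 3 and WT 2), with sums of 660 to 699 and 693 to 1050 CPM. The share called, 17.9%, was near that over all promoters. Ugt8a, a myelin lipid enzyme, was lower (-0.91, SE 0.17), and Mbp, myelin basic protein, stood at 45.3 ± 5.28 against 45.7 ± 4.43 CPM. Microglial genes counted 1 higher and 1 lower of 26 (1 and 0 without cortex KO 3 and WT 2), with sums of 276 to 395 and 320 to 375 CPM, and P2ry12 stood at 15.3 ± 2.6 against 15.1 ± 1.55 CPM. Vascular and mural genes counted 2 higher and 7 lower of 36 (0 and 4 without cortex KO 3 and WT 2), with sums of 430 to 551 and 516 to 615 CPM. Among the lower members were Rgs5 and Abcc9, genes of pericytes, at -1.19 (SE 0.19) and -0.93 (SE 0.22). The 2 higher members are not named here, so Rgs5 and Abcc9 do not stand for the list or for pericytes. The endothelial gene Cldn5 stood at 12.7 ± 2.7 against 12 ± 3.28 CPM. No member of these lists was at 0 in any library. Ependymal and choroid plexus genes counted 3 each way of 16 (1 and 0 without cortex KO 3 and WT 2), led by Pifo, a gene of primary cilia (1.05, SE 0.18). Markers of thalamus, hypothalamus and midbrain counted 1 higher and 1 lower of 35 (0 and 1 without cortex KO 3 and WT 2, 5 and 1 after density adjustment), the lower one in the main fit being Slc17a6.

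Oligodendrocyte precursor genes counted 2 higher and 2 lower of 15 (3 and 0 without cortex KO 3 and WT 2). Cacng4 and Sox8 (0.78, SE 0.14) were higher, and Olig1 and Lhfpl3 lower, at -0.40 and -0.48, neither of them called without cortex KO 3 and WT 2 (adjusted p = 0.287 and 0.614).

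Axon guidance genes counted 6 higher and 22 lower of 72 (median -0.20), and the other 44 did not pass. The counts were 5 and 10 without cortex KO 3 and WT 2 and 6 and 13 after density adjustment, and the median was -0.04 with total count scaling, -0.08 with cyclic loess and -0.07 after density adjustment. The ephrin receptors Ephb3 and Ephb6 averaged 44.4 ± 6.36 against 89.3 ± 6.24 CPM and 85 ± 15.8 against 193 ± 56.5 CPM (-1.01, SE 0.12, and -1.18, SE 0.19). Slit2 was at -1.10 (SE 0.19). The semaphorin receptors Plxnb1 and Plxnb2 and the ligand Sema3f were higher, at 0.70, 0.61 and 0.82. Classical cadherins counted 1 higher and 6 lower of 20 (median -0.32; 0 and 4 without cortex KO 3 and WT 2), led by Cdh11 (-1.01, SE 0.14), Cdh20 (-1.31, SE 0.20) and Cdh8 (-0.89, SE 0.15). Wnt signalling genes counted 3 higher and 15 lower of 58 (median -0.18; 3 and 9 without cortex KO 3 and WT 2), among them the R-spondins Rspo3 (-1.07, SE 0.17) and Rspo2. The Wnt ligand Wnt7a was higher (0.63, SE 0.17).

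Nuclear hormone receptors counted 1 higher and 8 lower of 29 (1 and 5 without cortex KO 3 and WT 2), with the thyroid hormone receptor Thra at 0.77 (SE 0.17) and Pparg at -0.81 (SE 0.15). Retinoid signalling genes counted 3 higher and 1 lower of 19 (2 and 0 without cortex KO 3 and WT 2), all under 0.60 in size. ErbB and neuregulin genes counted 1 higher and 3 lower of 21, and none was called without cortex KO 3 and WT 2. The shares called in the retinoid and ErbB lists, 21.1% and 19%, were near the 17.4% over all promoters. Immediate early genes counted 3 higher and 6 lower of 30 (2 and 5 without cortex KO 3 and WT 2). Ier2 was lower (-0.78, SE 0.15) and Egr4 higher (0.47, SE 0.11), and Fos stood at 53.6 ± 5.77 against 56.4 ± 3.68 CPM.

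Large gene families are given beside these lists. The Hox clusters, silent in forebrain, had 0 of 39 promoters called (median 0.34, and 0.11 without cortex KO 3 and WT 2). Their levels were low, with sums of 234 to 457 CPM in CeA and 201 to 327 CPM in cortex. Of all promoters at 5 to 10 CPM, 1.67% were called higher and 2.23% lower, so the absence of Hox calls says little. Clustered protocadherins, single-start adhesion genes expressed in neuron-specific combinations, had 6 of 58 higher and 0 lower (median 0.47; 2 and 0 without cortex KO 3 and WT 2). The share called was 10.3%, where 17.4% of all promoters were called and 5.50% were higher. Their levels were low too, with sums of 508 to 666 CPM in CeA and 370 to 511 CPM in cortex. Cytosolic ribosomal protein promoters had 11 higher and 1 lower of 81 (14.8% called, median 0.11; 11 and 0 without cortex KO 3 and WT 2). Olfactory receptor promoters had 9 higher and 39 lower of 1074 (4.47% called, median -0.15; 7 and 23 without cortex KO 3 and WT 2).

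**Figure D3:**
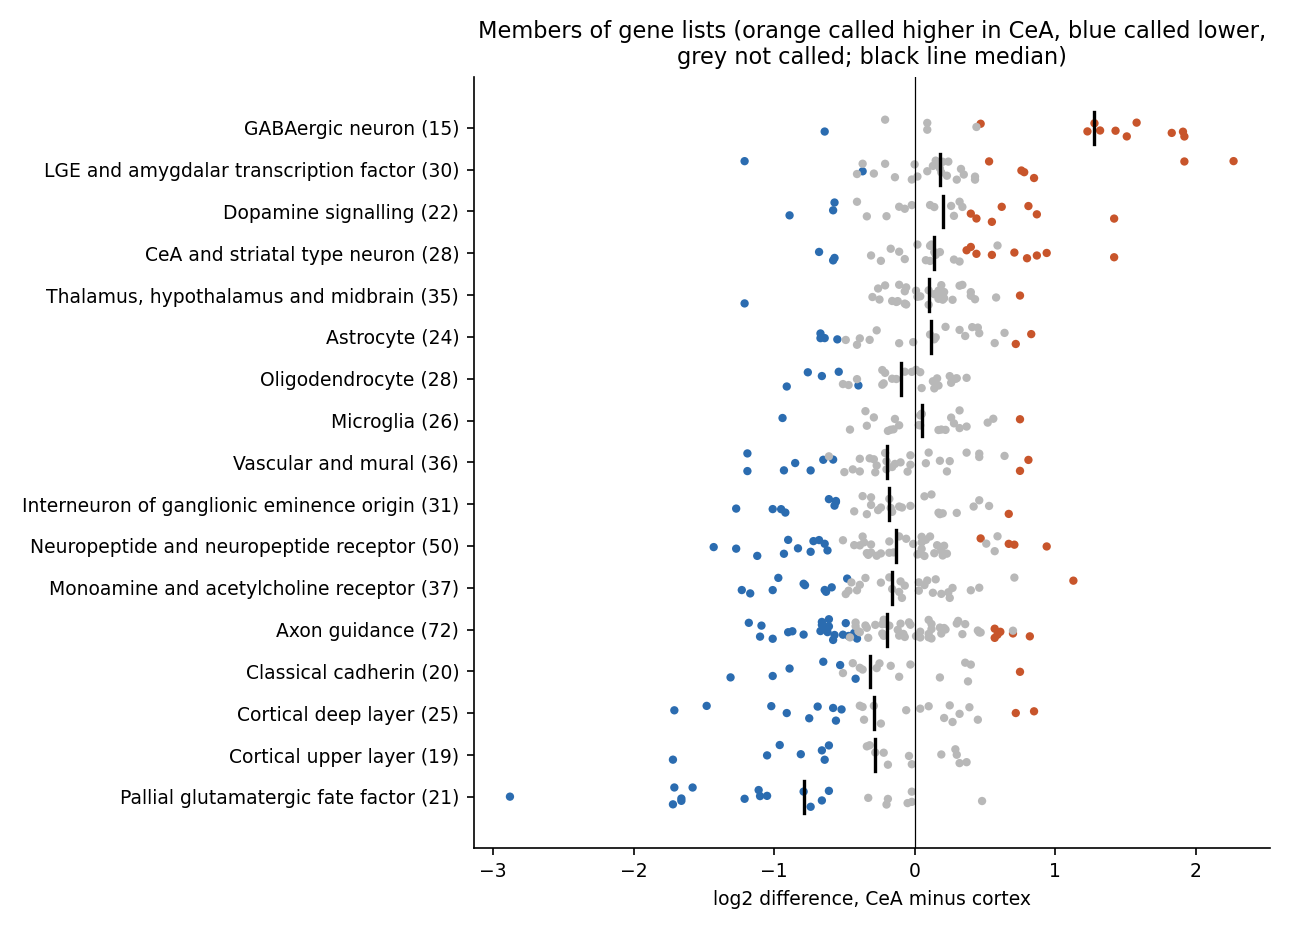
Log2 difference between CeA and cortex (horizontal axis) of each tested member of 17 gene lists, the number of members in brackets, with the list median as a black line. The GABAergic list has its median at 1.28 and the pallial fate factor list at -0.79, and most other lists lie near 0 with calls on both sides.

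Genes with more than 1 start showed differences between their promoters. Of 1242 genes with separate tested windows, 440 had a call at 1 or more, 53 were called in the same direction at each, and 23 were called in opposite directions. Of the 23, Zfp385b, a zinc finger gene, had the widest gap between called starts, at 1.29 (SE 0.15) and -1.57 (SE 0.15), with a start between them that did not pass. Bdnf, brain-derived neurotrophic factor, came next, and both were named after their values were seen. The Bdnf window at chr2:109513857-109518188 averaged 44.2 ± 14.9 CPM in CeA and 175 ± 48.3 CPM in cortex (-2.01, SE 0.21, adjusted p = 1.25e-06). The next windows along the gene, at chr2:109531593-109535565 and chr2:109548540-109550539, were at -1.29 (SE 0.16) and -0.63 (SE 0.17). The windows that begin at 109513857 and 109531593 are wider than the others of Bdnf, so CPM is not comparable between its starts. The last window, at chr2:109562078-109564077, was higher in CeA, at 27 ± 4.66 against 15.9 ± 4.11 CPM (0.78, SE 0.19, adjusted p = 0.00644). Synpr (synaptoporin) and the striatal phosphodiesterase Pde10a, also named after their values were seen, split the same way. Synpr was at -1.42 (SE 0.17) at one start and 0.51 (SE 0.17) at another, and Pde10a at -0.54 (SE 0.15) and 0.55 (SE 0.14).

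With all 10 libraries, the region difference also followed how many promoters lay nearby. Promoters were split into 4 bins of near equal size. In the bin of promoters with 1 to 10 windows within 500 kb, 20.4% were called lower and 2.6% higher (median -0.22). In the bin with 33 to 119 windows, 4.74% were lower and 9.59% higher (median 0.15). The gradient within a library was steepest in the cortex libraries KO 3 and WT 2, whose median levels deviated from the mean of 10 libraries by 0.32 and 0.26 in the sparse bin and by -0.21 and -0.18 in the dense bin. Cortex KO 1 ran the other way, from -0.11 to 0.12, and cortex KO 2 and WT 1 changed little (0.06 to -0.01 and 0.08 to 0.01). Among CeA libraries, WT 1 had a nearly as steep gradient in the opposite direction, from -0.18 to 0.22. CeA KO 2 ran from -0.17 to 0.13, and CeA KO 1 from 0.01 to -0.11. The gradient was therefore not confined to cortex KO 3 and WT 2. Without cortex KO 3 and WT 2 the median region difference was -0.06 in the sparse bin and 0.09 in the dense bin. With a term for each library's density gradient removed, 3442 promoters were called, 41.4% of them higher, and 2910 of these calls were shared with the unadjusted fit. The leading differences stood, after adjustment, at these values: Gad1 1.59, Dlx6 2.13, Six3 2.49, Neurod6 -2.70, Tbr1 -1.50 and Nrn1 -1.92. Among the autosomes, the median ran from -0.28 on chromosome 13 to 0.17 on chromosome 11.

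**Figure D4:**
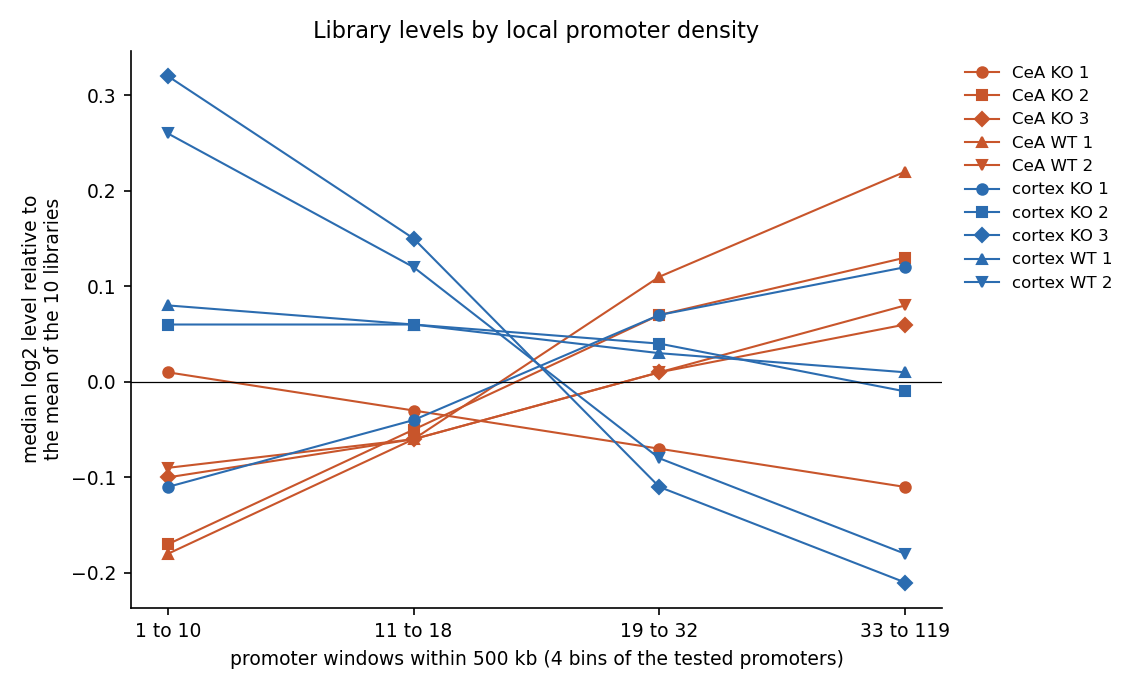
Median log2 level of each of the 10 libraries relative to their mean (vertical axis) in 4 bins of promoters by the number of windows within 500 kb (horizontal axis), CeA in orange and cortex in blue. Cortex KO 3 and WT 2 fall from 0.32 and 0.26 to -0.21 and -0.18, CeA KO 1 falls from 0.01 to -0.11, and the other CeA libraries rise. Cortex KO 1 rises from -0.11 to 0.12, and cortex KO 2 and WT 1 stay near 0.

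No dependence of the region difference on genotype was detected, but with 3 KO and 2 WT libraries per region one could have been missed. The interaction of region with genotype gave 0 of 24962 promoters by edgeR and 0 by DESeq2 and limma. By edgeR, 531 had an unadjusted p under 0.05, a smaller share than the 0.05 that chance alone gives. The smallest adjusted p was 0.988. The number at an unadjusted p under 0.05 was 2313 without cortex KO 3, 1382 without cortex WT 1, 813 without CeA KO 2, 319 without CeA KO 1 and 221 without cortex WT 2, with 0 called in each. In separate fits, 1063 promoters were called among KO libraries (4.24%) and 1307 among WT libraries (5.22%). The KO and WT fits share no library, but cortex KO 3, in the KO fit, and cortex WT 2, in the WT fit, deviated in the same way. The agreement of the fits was not computed without them. Of the KO calls higher in CeA, 365 of 366 had a positive difference in WT libraries, with a median of 0.90 in KO and 0.72 in WT, and 151 were also called there. Of the KO calls lower in CeA, 692 of 696 with a WT value had a negative difference in WT (median -1.09 in KO and -0.96 in WT), and 437 were called there, where 45.9% of all promoters had a negative WT value. Gad1 was at 1.52 in KO and 1.42 in WT libraries, and Neurod6 at -2.97 and -2.57. The smallest interaction p belonged to Eln, elastin, negative in KO and positive in WT libraries (adjusted p = 0.988).

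Bulk nuclei and SOM+ nuclei gave different region differences. The test of the bulk difference against the SOM+ difference called 9992 of 25163 promoters (39.7%), 5820 with the bulk value above and 4172 below. That balance turned with other scalings, 4576 of 10110 calls being above with total count scaling and 4883 of 9989 with limma after cyclic loess. Of 1373 promoters called higher in bulk CeA with a SOM+ value, 29.1% were called in the same direction in SOM+ nuclei and 43.8% in the opposite one. Of 2965 called lower, 24.5% were called in the same direction and 24.9% in the opposite one. Over all promoters tested in SOM+ nuclei, 25.6% were called higher and 25.2% lower. The shared calls were 6.4% of the SOM+ higher and 11.6% of the SOM+ lower calls. Gad1 and Slc32a1 stood near 0 in SOM+ nuclei, at 0.01 and -0.02, against 1.43 and 1.83 in bulk, and the differences between these were called (adjusted p = 4.22e-07 and 6.67e-08). Sox1, a neural progenitor factor, was called in opposite directions, at 1.19 in bulk and -1.24 in SOM+ nuclei (adjusted p = 5.32e-10). Dlx6 was higher in CeA in both, at 1.91 and 1.72, with a difference that did not pass (adjusted p = 0.21), and Zeb2 was lower in both, at -1.62 and -1.91 (adjusted p = 0.0893). Neurod6 and Tbr1 were at -0.91 and -0.15 in SOM+ nuclei, each called as different from bulk. Penk went further in SOM+ nuclei, at 2.60 against 0.94 (adjusted p = 4.84e-05), as did Ddc, at 3.27 against 2.27 (adjusted p = 0.0161). SOM+ and bulk libraries also differ in genotype groups, behavioural treatment and gate, so these cannot be told apart.

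**Figure D5:**
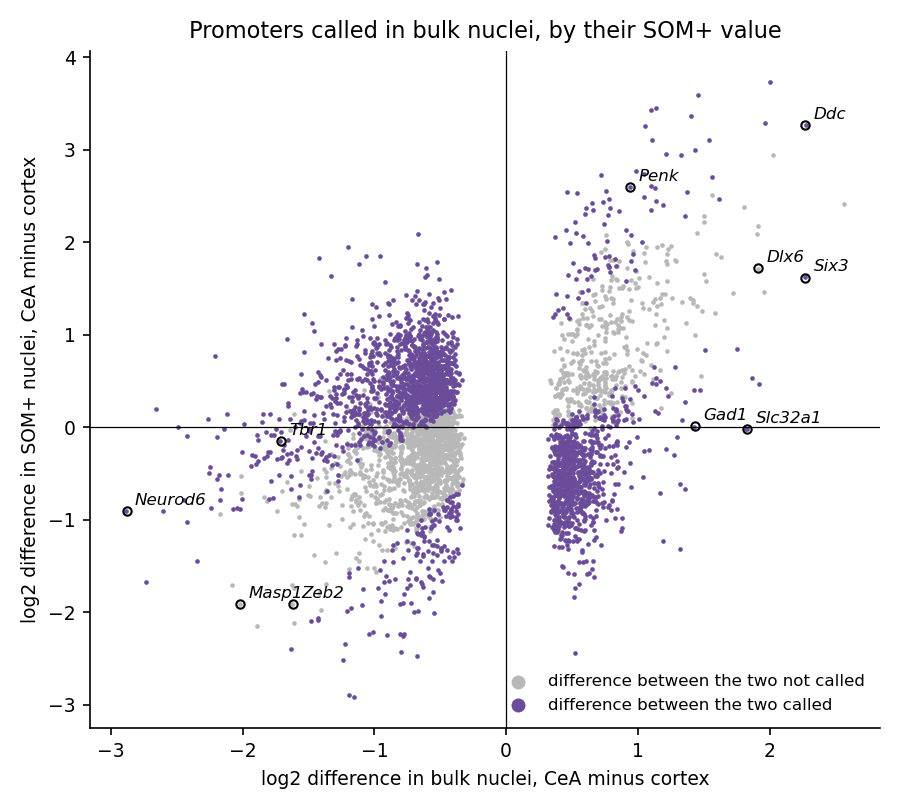
Log2 difference between CeA and cortex in SOM+ nuclei (vertical axis) against that in bulk nuclei (horizontal axis) for promoters called in bulk nuclei, in purple where the test of the difference between them was called. Dlx6 and Zeb2 lie in the quadrants of shared direction, and Gad1 and Slc32a1 lie near 0 in SOM+ nuclei.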

How the data were processed

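The table the authors deposited holds raw read counts, 1 column for each library, in windows reaching 1 kb on each side of a start site in mm9. Some windows are wider than 2000 bases. The counts are whole numbers with unequal totals, so no normalization had been applied. Tools listed in the submitters' processing notes are MACS2, Picard 1.88, Bowtie2, Trimmomatic 0.32 and bcl2fastq 2.16.0.10. How reads were counted, and whether the Tn5 offset was applied, is not given in the sources used here. Of 26728 entries, 663 repeated another window and were left out. Depth is known only as the promoter total, and all statements are limited to promoters.

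Counts of the 10 bulk libraries were fitted with edgeR 4.0.16 in R 4.3.3 (quasi-likelihood, robust, TMM) on region plus genotype, for windows kept by filterByExpr by region (minimum count 10, minimum total 15), with Benjamini-Hochberg adjustment over all windows tested. The comparison with SOM+ libraries used all 18 in 8 groups. Alternatives used DESeq2 1.42.0 and limma 3.58.1. The fit was tested on simulated data: of 100 promoters changed 2-fold among 24877 in the bulk comparison it called 67 in the right direction, and of 100 changed 1.5-fold 34, with 4 unchanged promoters called. Far fewer promoters were changed there than were called in the data, so the adjusted p was harder to pass. The simulated counts also held no gradient shared by libraries. These shares of found and false calls therefore do not carry over to the data.

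The text names the 12 promoters of each direction that had the smallest p among calls without overlap between regions (predicted and receptor-cluster genes left out), up to 3 called members per direction of each list and markers that define a list, called or not. Some promoters that the rule names are not reported here. A gene with several windows is represented by the window with the highest mean count, called its most accessible one, which favours wider windows. The 33 lists and the members named were chosen with earlier results of these data known. Counts on lists are descriptions with no test of the list, and they stand beside 17.4% of all promoters called. Same-numbered CeA and cortex libraries deviated together with r = -0.20, 0.26, 0.01, 0.39 and 0.39 (KO 1 to 3, WT 1 and 2), so the numbers were not taken as pairs. Reference promoter sequences were taken from RefSeq for GRCm38.p6.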

Additional observations from a re-analysis of the deposited data

Results flagged for a closer look

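Among 274 groups of 5 libraries, 2 for each of 137 promoters, 16 held a library far from the other 4 by Dixon's criterion, of which chance flags about 1 in 20 groups. CeA KO 1 stood above the other CeA libraries at Dlx5 (124 against 71.6 to 85.9 CPM), Penk (95.1 against 66.8 to 72.8 CPM), Lypd1 (103 against 78 to 83.2 CPM), Aqp4 (23.4 against 15.5 to 17.1 CPM) and Zfhx4 (55.8 against 36.8 to 41.2 CPM). CeA WT 2, the library with the lowest promoter total, was high at Osbpl1a (32 against 13.7 to 14.5 CPM), Satb1 (54.4 against 30.6 to 37.4 CPM) and Slc17a8 (11 against 6.83 to 7.64 CPM). CeA WT 1 was high at Lhx6 (33.7 against 15.5 to 17.7 CPM), Drd5 (18.1 against 9.72 to 12.1 CPM) and Ephb3 (55.4 against 39.3 to 43.4 CPM). CeA KO 2 was low at Oxtr, at 25.8 CPM against 31.9 to 32.7. In cortex, KO 1 was high at Slc30a3 (35.4 against 23.6 to 26 CPM) and Bahcc1 (47.1 against 35.3 to 37.8 CPM), KO 2 was low at Vip (5.57 against 9.49 to 10.5 CPM) and KO 3 was low at Neurod2 (11.7 against 21.3 to 24.8 CPM).

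The region difference departed most from that of SOM+ nuclei, by the test of the difference itself, at the 15 promoters given here. The bulk value exceeded the SOM+ value on the log2 scale by 3.11 at Cort, 2.61 at Sox1, 2.53 at Bahcc1, 2.5 at Timp2, 2.4 at Faap100, 2.27 at Slc38a10 and 2.15 at Dlx1. Bahcc1, Timp2, Faap100 and Slc38a10 lie close together, at chr11:118215726-120241060, so they may not be separate findings. The bulk call on Bahcc1 was lost after density adjustment (adjusted p = 0.0674, edgeR). Cort and Dlx1 were not called in bulk nuclei (0.20 and 0.09), and in SOM+ nuclei they stood at -2.68 and -1.85. Sox1, a neural progenitor factor, was called in opposite directions, at 1.19 in bulk and -1.24 in SOM+ nuclei. The bulk value lay below the SOM+ value, with differences of -2.77 at Zfhx4, -2.76 at Adgrf4, -2.59 at Pkp2, -2.49 at Ptprd, -2.29 at Shroom2, -2.16 at Sv2b, -2.06 at Il17b and -2.05 at Slitrk2. Adgrf4, Shroom2, Il17b and Slitrk2 were lower in bulk CeA and higher in SOM+ CeA, with Slitrk2, a synaptic adhesion gene, at -0.67 and 1.48.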

How the results depend on the processing

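Of 100 called promoters named from the main comparison, 88 kept their call and direction in each of 25 other settings with libraries of both genotypes. Many of these were chosen for a small p in the main fit, which favours keeping the call. Of all 4345 main calls, 48.5% were also called without cortex KO 3 and WT 2, and 67% after density adjustment. None of the 100 reversed, and 11 lost the call on leaving out 1 library, by edgeR. With 1 such library each, the adjusted p became 0.0508 for Abat (CeA WT 1), 0.0531 for Grik3 and 0.0522 for Oxtr (CeA KO 3), and 0.0595 for Pde10a and 0.0571 for Wnt7a (CeA KO 2). Rasd2 was lost without CeA WT 1, cortex KO 3 or cortex WT 2 (0.0601 to 0.0668). Sst was lost without CeA KO 1, CeA KO 2, cortex KO 2 or cortex WT 1 (0.0659 to 0.0922). Lhfpl3 was lost without any library but CeA KO 1, CeA WT 2, cortex KO 1 and cortex WT 1 (0.0628 to 0.243), Nmbr without any but cortex KO 1, KO 2 and WT 1 (0.0546 to 0.273), Olig1 without any but cortex KO 1 and WT 1 (0.0571 to 0.166) and Slc17a7 without any but CeA KO 3 and cortex KO 3 (0.0644 to 0.0997). Grin1 lost it only when adjusted for local density (0.0585). The counts over all promoters moved more, and where no cause is named it was not tested. Promoters called higher numbered 2409 with total count scaling, 2641 with limma after cyclic loess, 2127 with DESeq2 and 2091 at a minimum count of 30, against 1374. KO libraries alone gave 1063 calls (366 higher, 697 lower) and WT libraries alone 1307 (397 and 910), from fewer libraries. Without cortex KO 3 and WT 2, an alternative chosen after seeing the data like the adjustment for local density and the sex read from Y-linked counts, 2390 were called, 1229 of them lower. Leaving out 1 library gave 2645 (without cortex KO 3) to 6838 calls (without cortex KO 1), 807 (without CeA KO 2) to 2087 (without cortex KO 1) higher and 1482 (without CeA WT 1) to 4751 (without cortex KO 1) lower. Other libraries whose removal moved a count by over 1.5 times were CeA KO 2, CeA WT 1 and cortex WT 2 (2699, 2842 and 2700 calls), CeA KO 3 and CeA WT 2 (865 and 892 higher) and cortex KO 3 and WT 2 (1508 and 1511 lower). With a replicate block, 4622 promoters were called, 4236 of them shared, and an exact test by sign flips of the pairs gave p = 0.0625 for enrichment, the smallest it can give. Of the libraries, WT 1 and WT 2 correlated best with their own number and KO 1 to 3 did not. The gap in enrichment, 3.92 with all libraries, ran from 3.12 to 5.31 on leaving out 1 library, with an exact permutation p of 0.00794 without CeA WT 1.

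The Erbb4 difference, which was not called, changed sign to 0.05 with total count scaling, 0.11 without cortex KO 3 and WT 2 and 0.17 adjusted for density, and ran from -0.21 to 0.02 on leaving out 1 library. Of the list medians, 39 values moved by more than the spread between libraries without a change of sign, such as deep-layer genes from -0.29 to 0 and upper-layer genes from -0.28 to -0.06 (density), and Wnt genes from -0.18 to -0.03 and potassium channels to -0.02 (total count scaling). Medians near 0 changed sign. With total count scaling they became 0.02 (neuropeptides), 0.05 (glutamatergic function), 0.03 (basolateral amygdala), 0.05 (oligodendrocyte), 0.14 (ependymal) and 0.09 (immediate early). With cyclic loess they became 0.01 (ependymal) and 0.14 (immediate early). Adjusted for density they became 0.02 (neuropeptides), 0.14 (ependymal), 0.04 (GABA-A and glutamate receptors), 0.02 (immediate early) and 0.04 (ErbB). Without cortex KO 3 and WT 2 they became 0.01 (neuropeptides), -0.02 (microglia), 0.08 (ependymal) and 0.07 (ErbB). In the simulated data differences of 1.5-fold were often missed, but few promoters were changed there, and how often such differences were missed here was not tested.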
